A study of Mus musculus with 5 samples.

Results

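Phagocytes clear dying cells with receptors that bind the dying cell, with secreted bridging proteins that coat it, and with adaptors that pull the membrane round it. The genes described here were chosen by symbol and comprise 3 receptors (Mertk, Lrp1 and Cd93), 3 bridging proteins (Gas6, Pros1 and Mfge8) and 3 engulfment adaptors (Elmo1, Dock1 and Gulp1). All 9 are among the 21983 genes of the deposited count table, and all 9 passed the filter on low counts that left 12543 genes to test. RNA sequencing of primary microglia, the macrophages of the brain, gave 5 libraries. In 2 of them the genotype is Cx3cr1CreERT2 Ythdf2fl/fl, labelled knockout, where a tamoxifen-inducible Cre recombinase driven by the microglial gene Cx3cr1 meets Ythdf2 alleles flanked by loxP sites. In the other 3 it is Ythdf2fl/fl without Cre, labelled control, so both groups carry the floxed alleles. Ythdf2 encodes a reader of N6-methyladenosine, a modified base of mRNA, and speeds the decay of the mRNAs it binds. The study asked which processes change in microglia that lose it. The sources used here do not give age, sex, tamoxifen treatment or the number of animals per library, and p-values therefore measure the spread between these libraries, which may be technical.

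Dying cells expose phosphatidylserine on their outer membrane. Gas6 and protein S, the product of Pros1, bind this lipid at one end and receptor tyrosine kinases at the other. These belong to the TAM family (Tyro3, Axl and Mertk), not every member of which binds both ligands. Mfge8 links the lipid to integrins through an RGD motif. Lrp1 is a large endocytic receptor that takes up apoptotic cells, lipoproteins and protease complexes. Elmo1 and Dock1 together activate the small GTPase Rac, which drives the actin cup, and Gulp1 is an adaptor that binds the tail of Lrp1. Microglia use these routes to remove dying neurons and synapses.

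Mfge8 stood furthest apart between the groups, with a mean 3.61-fold higher in the knockout-labelled libraries, and it was the only one of the 9 genes in which both of these libraries lay above every control. Gulp1 was the only one in which both lay below, at levels close to the detection limit. The other 7 genes overlapped between the groups. None of the 9 passed edgeR's quasi-likelihood test (adjusted p 0.403 to 0.989), and neither did any of the 12543 genes tested (0%). At an unadjusted p under 0.05 edgeR found 1 of the 9, Mfge8, where the share over all genes tested was 6.68% (3.99% higher and 2.69% lower in the knockout-labelled libraries). DESeq2 called 232 of the 13811 genes it adjusted (1.68%, with 1.06% higher), among them the same member, Mfge8, and limma-voom called 0 genes (0%). A log2 fold change of 1 or more was found for Mfge8 and Cd93 and for 7.67% of all genes tested, and one of -1 or less for Gulp1 and 4.1% of all genes. Over all genes tested the knockout-labelled libraries lay above every control in 9.85% and below in 10.4%, so 1 of 9 in each direction is near the background. The log2 fold change was positive in 7 of the 9 and in 51.1% of all genes tested, and the median was 0.36 for the 9 and 0.013 for all genes. The median of the 9 was 0.065 without the library labelled knockout 1.

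**Figure D1:**
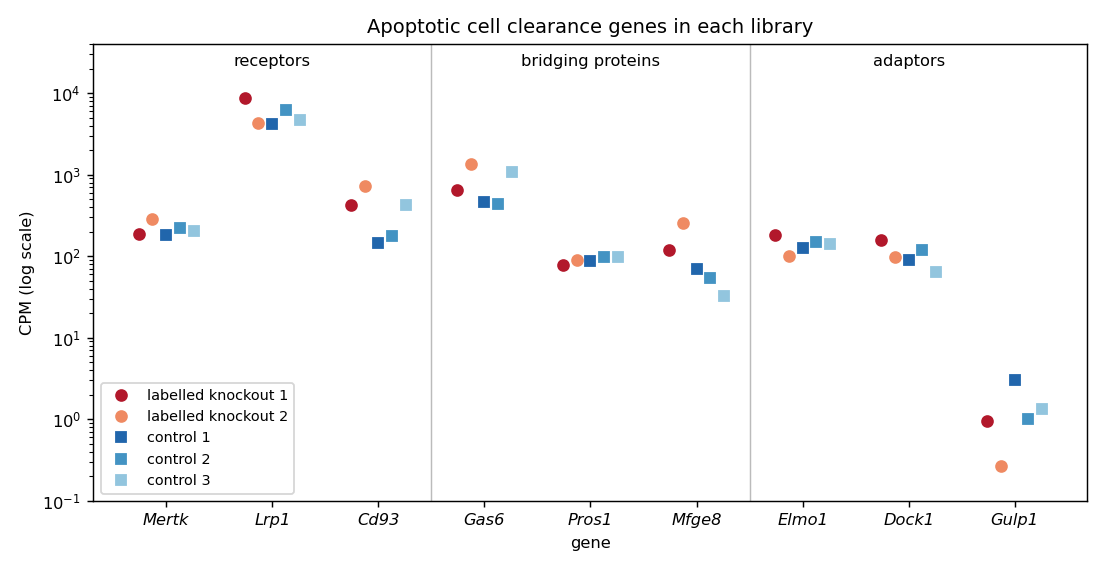
Level of each gene in CPM (counts-per-million of the TMM-scaled library total, log axis) in each library, circles for the 2 libraries labelled knockout and squares for the 3 controls. Mfge8 is the one gene with both circles above all squares, Gulp1 the one with both below, and Lrp1 is the most abundant at 4167 to 8629.6 CPM.

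The libraries held 13947500 to 19577217 counts. Ythdf2 itself went against the label: it was not lower in the knockout-labelled libraries, at 103 and 127 CPM versus 57.0 to 69.2 CPM among controls (edgeR log2 fold change 0.83, adjusted p = 0.431). Which exons are flanked by loxP is not stated in the labels, so a count over the whole gene cannot check the deletion, and each direction given here rests on the labels. Cx3cr1, the gene that drives the Cre, was at 337 and 97.7 CPM versus 681 to 992 CPM. Of 10 microglial markers Csf1r was abundant in every library (2372 to 4220 CPM), P2ry12 and Tmem119 were between 5.35 and 34.1 CPM, and Trem2 was listed at 0 throughout. The summed level of the 10 was 3042 and 3863 CPM in the knockout-labelled libraries and 4735 to 5892 CPM in the controls.

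Mertk, the TAM receptor best known for engulfment, measured 189 and 283 CPM in knockout-labelled libraries 1 and 2 and 181, 222 and 201 CPM in controls 1 to 3. The library labelled knockout 2 was highest and the other lay among the controls. Means were 236 ± 66.3 (SD, n = 2) and 202 ± 20.7 (SD, n = 3). Its log2 fold change was 0.23 (SE 0.253; edgeR adjusted p = 0.926), and -0.092 without the library labelled knockout 2. Mertk occupies bases 128698956 to 128802894 of chromosome 2 on the plus strand (GRCm38, GENCODE M21), and no exon of another gene overlaps its exons. Its sister receptor Axl overlapped between the groups too, at 405 and 555 CPM versus 443 to 484 CPM (log2 fold change 0.032, and -0.21 without the library labelled knockout 2). Per kilobase of transcript Axl exceeded Mertk in every library, by 2.16 and 1.98 times in the knockout-labelled libraries and by 2.19 to 2.46 times in the controls. Tyro3, the third sister, varied most, at 135 and 24.8 CPM versus 63.8, 73.1 and 9.66 CPM. Its libraries stood in the same order as those of Edil3, described below, and its log2 fold change was 0.71, -1.01 without the library labelled knockout 1.

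Lrp1 was the most abundant of the 9 genes, at 8629.6 and 4253 CPM in the knockout-labelled libraries and at 4167, 6169.7 and 4739.9 CPM in the controls. One library labelled knockout was highest of all and the other second lowest. Means were 6441 ± 3095 (SD, n = 2) and 5026 ± 1031 (SD, n = 3), giving a log2 fold change of 0.36 (SE 0.434; edgeR adjusted p = 0.926) that was -0.27 without the library labelled knockout 1. Lrp1 occupies bases 127538161 to 127621148 of chromosome 10 on the minus strand (GRCm38) and shares no exon with another gene. Lrpap1, the chaperone that keeps Lrp1 free of ligands on its way to the surface, was at 124 and 241 CPM versus 167 to 208 CPM. The library labelled knockout 1 was therefore highest in the receptor and lowest in its chaperone, and Lrp1 exceeded Lrpap1 per kilobase by 13.97 times there against 3.54 to 6.64 times in the other 4 libraries.

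Cd93, a C-type lectin-like receptor first described as a promoter of phagocytosis and also made by endothelium, was at 419 and 731 CPM versus 144, 176 and 422 CPM. Control 3 was level with the library labelled knockout 1, so the groups overlapped by that one control. Means were 575 ± 221 (SD, n = 2) and 247 ± 152 (SD, n = 3), and the log2 fold change was 1.22 (SE 0.528; edgeR adjusted p = 0.778, DESeq2 adjusted p = 0.524). Without control 3 it was 1.85 in edgeR (adjusted p = 0.389), and DESeq2 then called it (adjusted p = 0.00282). Without the library labelled knockout 2 it was 0.76. Cd93 occupies bases 148436640 to 148443563 of chromosome 2 on the minus strand (GRCm38), with no overlapping exon. Among 11 endothelial markers Cldn5, Tie1 and Emcn were at 0 in all 5 libraries, and the sum of the 11 was 137 and 97.2 CPM versus 51.3 to 135 CPM. The microglial marker Trem2 was at 0 in all 5 as well, so a 0 cannot be read as absence of a cell type. One of the 11, Vwf, lay above every control at 55.6 and 81.8 CPM versus 8.25 to 18.6 CPM (edgeR adjusted p = 0.262, DESeq2 adjusted p = 0.000117). Pecam1 lay below, at 0.0595 and 0.108 CPM versus 0.297 to 1.01 CPM. Of the 6 endothelial markers tested 1 lay above every control and 1 below, beside 9.85% and 10.4% of all genes tested. The part of endothelial cells in Cd93 was not tested.

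The promoters of the 3 bridging genes are printed because these genes bind the same lipid yet spread between libraries to very different degrees. The windows run from 250 bases before to 50 after each start and come from RefSeq (GRCm38.p6), which held a promoter for 8 of the 9 genes. Capitals mark matches on either strand to the GC box (GGGCGG), counted with overlaps.
Mfge8, chr7:79149011-79149310, minus strand: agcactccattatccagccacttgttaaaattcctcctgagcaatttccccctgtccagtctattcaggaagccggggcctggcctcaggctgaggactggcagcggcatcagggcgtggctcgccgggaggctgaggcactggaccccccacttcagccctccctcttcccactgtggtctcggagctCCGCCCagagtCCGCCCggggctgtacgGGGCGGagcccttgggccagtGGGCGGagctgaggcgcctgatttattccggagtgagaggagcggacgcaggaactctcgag
Gas6, chr8:13494486-13494785, minus strand: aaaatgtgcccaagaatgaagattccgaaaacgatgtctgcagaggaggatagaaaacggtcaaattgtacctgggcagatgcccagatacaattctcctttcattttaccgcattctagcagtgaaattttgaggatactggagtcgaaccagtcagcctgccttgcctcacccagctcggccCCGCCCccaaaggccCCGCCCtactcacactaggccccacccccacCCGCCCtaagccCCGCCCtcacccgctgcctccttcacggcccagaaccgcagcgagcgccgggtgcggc
Pros1, chr16:62854057-62854356, plus strand: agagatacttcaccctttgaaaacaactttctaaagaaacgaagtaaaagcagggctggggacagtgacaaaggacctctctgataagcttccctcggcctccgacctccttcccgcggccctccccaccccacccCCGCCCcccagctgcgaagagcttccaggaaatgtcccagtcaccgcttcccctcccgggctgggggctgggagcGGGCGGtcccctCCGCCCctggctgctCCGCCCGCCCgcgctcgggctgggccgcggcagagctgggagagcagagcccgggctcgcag
The GC box matched 4 times in the window of Mfge8, 4 times in that of Gas6 and 5 times in that of Pros1, and 35.7% of 32851 promoters of this length hold it at least once. Other motifs were searched on both strands and matched in none of the 3 windows. The core of a PU.1 site, spelled GGAAGT, is present in 23.8% of all promoters of this length. The AP-1 site, TGACTCA, is present in 5.2% of them, and the E-box, CACGTG, in 7.15%. The TATA box, searched as the letters TATAAA, is present in 13.6%.

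Mfge8, whose promoter opens the set above, was at 119 and 257 CPM in the knockout-labelled libraries and at 70.4, 53.6 and 32.4 CPM in the controls. Every control lay below both libraries labelled knockout, with no overlap. Means were 188 ± 97.6 (SD, n = 2) and 52.1 ± 19.0 (SD, n = 3), giving a log2 fold change of 1.85 (SE 0.444). In edgeR the adjusted p was 0.403, in limma-voom 0.586 and in DESeq2 0.0193. The DESeq2 call was lost without the library labelled knockout 2 (log2 fold change 1.22, adjusted p = 0.208) and without control 2 (adjusted p = 0.143), and it was kept without each of the other 3 libraries (adjusted p 0.00254 to 0.0425). Mfge8 occupies bases 79133768 to 79149060 of chromosome 7 on the minus strand (GRCm38), with no overlapping exon.

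Markers of choroid plexus epithelium and ependyma, taken as a sum, separated the libraries in the same direction as Mfge8. They summed to 169 and 225 CPM in the knockout-labelled libraries and to 11.9 to 30.7 CPM in the controls. Of these 8 markers 6 (Ttr, Folr1, Clic6, Kl, Kcnj13 and Otx2) lay above every control, beside 9.85% of all genes tested. None of the 8 was at 0 in all libraries. Foxj1 and Cfap126 overlapped between the groups, Foxj1 at 10.3 and 3.51 CPM versus 0.892 to 5.91 CPM. Cfap126 was at 1.25 and 1.35 CPM versus 0.444 to 2.16 CPM. Ttr alone was at 101 and 203 CPM versus 5.89 to 24.8 CPM. Markers of fibroblasts and mural cells were lower, at 48.8 and 17.9 CPM versus 54.0 to 205 CPM in sum, with 6 of 11 below every control. One of these 6, Lum, had at most 10 counts and did not pass the filter. That leaves 5 of 8 tested markers, beside 10.4% of all genes tested. Astrocyte markers overlapped, at 138 and 103 CPM versus 52.0 to 244 CPM. The part of these cells in the Mfge8 difference was not tested, and in bulk RNA fewer cells of a type and less RNA per cell cannot be told apart.

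Edil3, the nearest relative of Mfge8 and likewise a secreted integrin ligand, did not share its pattern. It was at 102 and 25.5 CPM versus 60.9, 75.6 and 8.25 CPM, for a log2 fold change of 0.39 that was -0.95 without the library labelled knockout 1. Oligodendrocyte lineage markers summed to 12644 and 4653 CPM in the knockout-labelled libraries and to 10742, 9712 and 1299 CPM in the controls. None of these 11 markers was at 0 in all libraries and all 11 overlapped between the groups, as did 10000 of the 12543 genes tested. Like the oligodendrocyte sum, Edil3 and Tyro3 were highest in the library labelled knockout 1 and lowest in control 3. This match was picked out after the values were seen. Neuron markers, at 201 and 51.7 CPM versus 75.5, 73.0 and 38.7 CPM in sum, ordered the libraries as the oligodendrocyte sum did. The monocyte and endothelial sums, given with Dock1 and Cd93, had the same highest and lowest libraries. The part of any of these cell types in Edil3 and Tyro3 was not tested.

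Gas6, the ligand shared by all TAM receptors, was at 642 and 1344 CPM versus 466, 439 and 1086 CPM. The library labelled knockout 2 and control 3 stood apart from the other 3 libraries, so the high values were split between the groups. Means were 993 ± 497 (SD, n = 2) and 664 ± 366 (SD, n = 3), for a log2 fold change of 0.58 (SE 0.532; edgeR adjusted p = 0.924). Without the library labelled knockout 2 it was -0.049, and without control 3 it was 1.13. Gas6 occupies bases 13465374 to 13494490 of chromosome 8 on the minus strand (GRCm38). Exons of Tmem255b on the other strand cover 1.33% of its exon bases, and no source states a strand setting for the counting.

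Gas6 ordered the 5 libraries as the sum of border-associated macrophage markers did, a match picked out after the values were seen. These 9 markers summed to 494 and 1747 CPM in knockout-labelled libraries 1 and 2 and to 453, 364 and 1010 CPM in controls 1 to 3. Cd93 had the same 3 libraries on top. The largest single part of the sum was Mrc1, at 383 and 1200.4 CPM versus 216, 238 and 618 CPM. Cd163 had the order of the sum, at 8.74 and 9.89 CPM versus 4.15, 2.60 and 8.85 CPM. Pf4 and Folr2 did not, being lowest in the library labelled knockout 1 at 15.0 and 7.32 CPM. F13a1 was lowest in control 3 at 23.9 CPM. Cd209a was at 0 in all libraries. Cd209f had 45 counts in control 3, 1 in control 2 and 0 in the other 3 libraries, and Lyve1 was at most 1.19 CPM. Of the 7 markers tested 1, F13a1, lay above every control and 1, Lyve1, below, beside 9.85% and 10.4% of all genes tested. The part of such cells in Gas6 and Cd93 was not tested.

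Pros1 was the steadiest of the 9 genes, at 78.1 and 88.6 CPM versus 87.6, 97.1 and 97.5 CPM. Its highest library exceeded its lowest by 1.25 times, while for Gas6 this was 3.06 and for Mfge8 7.94 times. Means were 83.4 ± 7.45 (SD, n = 2) and 94.0 ± 5.63 (SD, n = 3), and the groups overlapped by 1 control. The log2 fold change was -0.17 (SE 0.19; edgeR adjusted p = 0.926). It stayed negative, from -0.27 to -0.11, with each library left out in turn. Pros1 occupies bases 62854307 to 62929346 of chromosome 16 on the plus strand (GRCm38), with no overlapping exon.

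**Figure D2:**
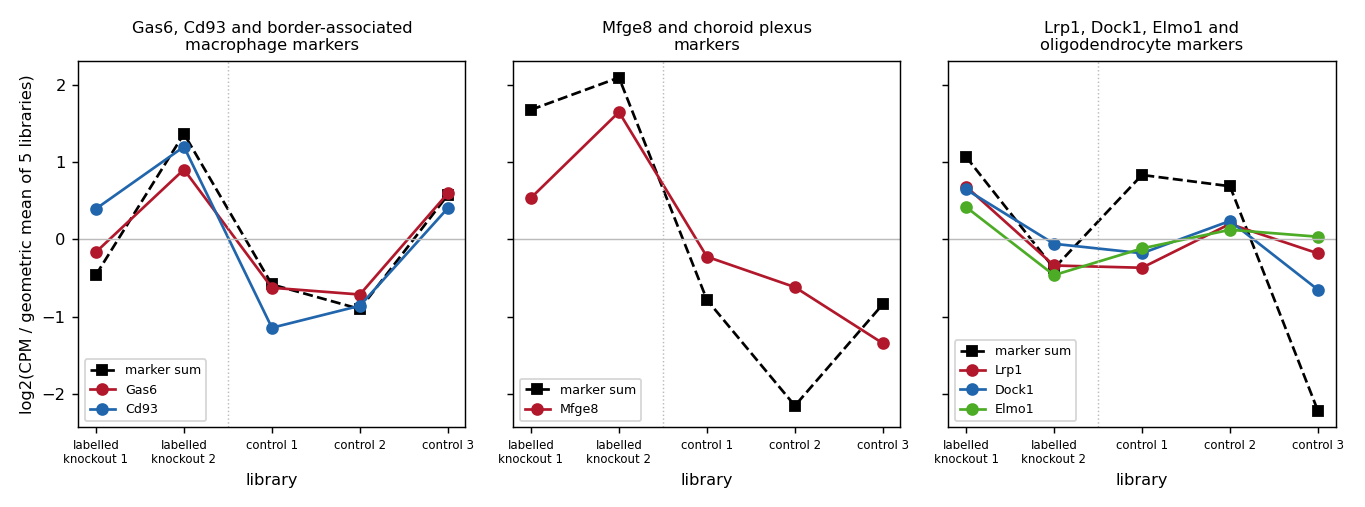
Log2 of CPM over the geometric mean of the 5 libraries, for the genes named in each panel (circles) and for the summed CPM of a marker list (dashed line, squares), with the knockout-labelled libraries left of the dotted line. Gas6, Cd93 and the border-associated macrophage sum are highest in the library labelled knockout 2 and lowest in controls 1 and 2, with Cd93 level between control 3 and the library labelled knockout 1, Mfge8 and the choroid plexus sum are high in both libraries labelled knockout, and the oligodendrocyte sum is lowest in control 3 while Lrp1, Dock1 and Elmo1 vary over a narrower range.

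Elmo1, which with Dock1 forms the exchange factor for Rac, was at 183 and 99.3 CPM versus 126, 149 and 140.04 CPM. The libraries labelled knockout were the highest and the lowest of the 5, with all controls between them. Means were 141 ± 59.0 (SD, n = 2) and 138 ± 11.6 (SD, n = 3), and the log2 fold change was 0.027 (SE 0.299; edgeR adjusted p = 0.989). Leaving out the library labelled knockout 1 gave -0.51, and leaving out knockout 2 gave 0.40. Elmo1 occupies bases 20090596 to 20608353 of chromosome 13 on the plus strand (GRCm38), and Gm32036 on the other strand overlaps 3.2% of its exon bases. Elmo2, a close relative, was at 112 and 78.5 CPM versus 95.1 to 110 CPM. Elmo3 was between 2.22 and 4.16 CPM in all 5 libraries.

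Dock1, the catalytic partner of Elmo1, was at 157 and 96.5 CPM versus 88.6, 118 and 63.9 CPM. Like Elmo1 it was highest in the library labelled knockout 1, and the other library labelled knockout lay among the controls. Means were 127 ± 42.8 (SD, n = 2) and 90.3 ± 27.3 (SD, n = 3), giving a log2 fold change of 0.49 (SE 0.343; edgeR adjusted p = 0.905) that was 0.065 without the library labelled knockout 1. The monocyte and endothelial marker sums both ordered the libraries as Dock1 did, matches picked out after the values were seen. Single endothelial markers differed: in the library labelled knockout 2 Flt1 had its lowest value (10.6 CPM) and Vwf its highest (81.8 CPM). The endothelial sum is given above with Cd93, and the monocyte markers summed to 2301 and 1433 CPM versus 1382, 1798 and 366 CPM, nearly all of it Fn1. S100a4 and Chil3 of that list were at 0 throughout. Of its 5 tested markers 2 (Spn and Ace) lay above every control and 1 (Nr4a1) below, beside 9.85% and 10.4% of all genes tested. The part of either cell type in Dock1 was not tested. Dock1 occupies bases 134670654 to 135173639 of chromosome 7 on the plus strand (GRCm38), with no overlapping exon. Dock2, the form typical of blood-derived cells and macrophages, was even, at 538 and 497 CPM versus 423 to 572 CPM. Dock5 was at 74.2 and 37.3 CPM versus 18.2, 22.7 and 5.28 CPM, higher than all 3 controls in the pair of knockout-labelled libraries (log2 fold change 1.85, SE 0.618; edgeR adjusted p = 0.636). Dock1 exceeded Dock5 per kilobase by 3.11 and 3.8 times in the knockout-labelled libraries and by 7.16 to 17.8 times in the controls.

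Gulp1, the adaptor of Lrp1, was close to the detection limit, with 16 and 5 counts in the knockout-labelled libraries and 48, 16 and 18 in the controls. In CPM this was 0.952 and 0.27 against 3.02, 1.01 and 1.34. The exact Poisson 95% intervals, which cover counting error only, ran from 0.544 to 1.55 CPM in the library labelled knockout 1 and from 0.579 to 1.65 CPM in control 2, so the gap between these neighbours was within counting error. Means were 0.611 ± 0.482 (SD, n = 2) and 1.79 ± 1.08 (SD, n = 3), for a log2 fold change of -1.57 (SE 0.822; edgeR adjusted p = 0.865). Leaving out the library labelled knockout 2 gave -0.91, and leaving out knockout 1 gave -2.73. Fibroblast and mural markers, given above, were lower in the same libraries, and their part in Gulp1 was not tested. Gulp1 occupies bases 44551511 to 44796838 of chromosome 1 on the plus strand (GRCm38), with no overlapping exon.

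**Figure D3:**
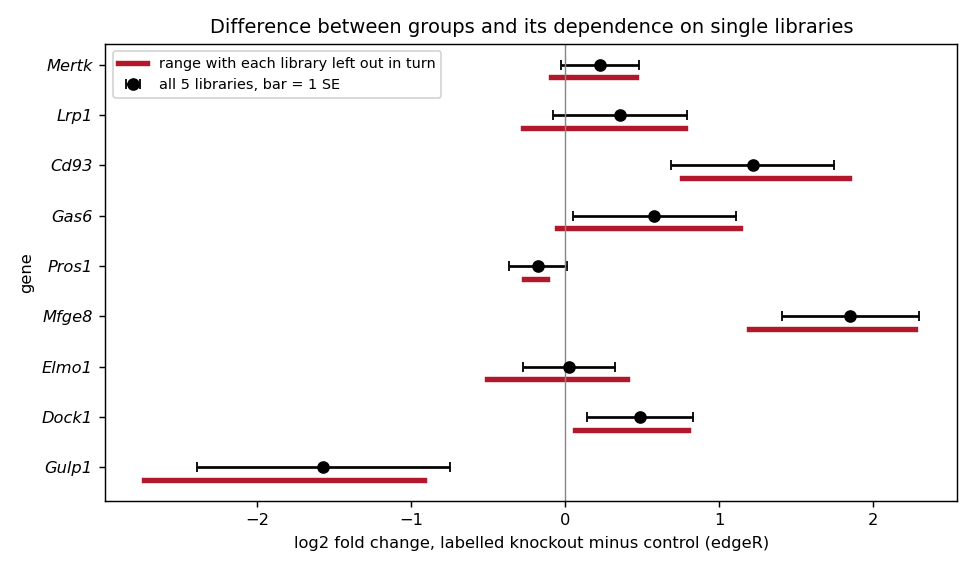
The edgeR log2 fold change (libraries labelled knockout minus control) of each gene with 1 SE (black), and below it the range when each library is left out in turn (red). The ranges of Mertk, Lrp1, Gas6 and Elmo1 cross 0, and those of Mfge8 and Cd93 lie above it at 1.19 to 2.27 and 0.76 to 1.85.

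Levels were compared between genes in CPM per kilobase of the principal transcript. Lrp1 (376 ± 126, SD over 5 libraries) and Gas6 (312 ± 158) were highest with overlapping ranges. A gap separated them from Cd93 (56.7 ± 35.4), Mfge8 (50.2 ± 42.4) and Mertk (50.1 ± 9.49), whose ranges overlapped. Below Mertk, with no overlap with it, came Pros1 (27.2 ± 2.42), Elmo1 (25.5 ± 5.61) and Dock1 (15.4 ± 5.15), each overlapping its neighbour. The ranges of Cd93 (down to 21.6) and Mfge8 (down to 15.3) did overlap those of Pros1, Elmo1 and Dock1. Gulp1 was last, at 0.42 ± 0.327. Where the union of all annotated exons is taken as the length, Mfge8 has a mean of 22.7 and falls below Mertk at 49.7, since its annotated exons are longer than its principal transcript. Elmo1 then has a mean of 11.08 and falls just below Dock1 at 11.24, and ratios between genes move with the length chosen. Among the ligands, by principal transcript, Gas6 exceeded Pros1 per kilobase by 10.6 and 19.7 times in the knockout-labelled libraries and by 5.86 to 14.4 times in the controls. Gas6 exceeded Mfge8 by 4.48 and 4.36 times in the knockout-labelled libraries and by 5.52, 6.82 and 27.95 times in the controls.

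**Figure D4:**
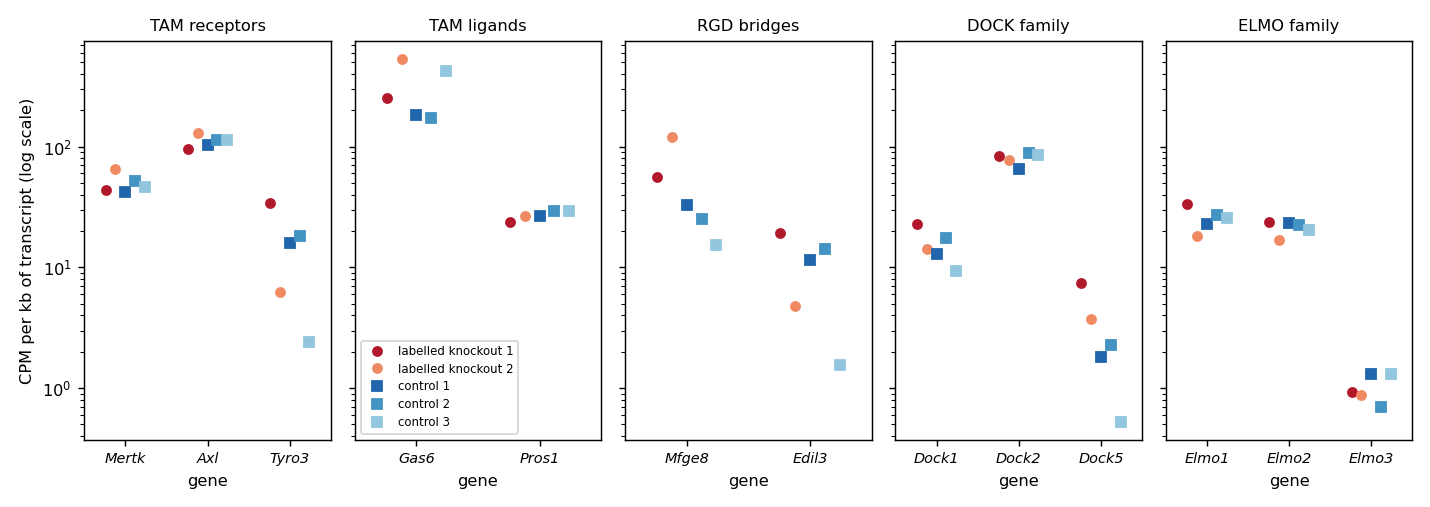
CPM per kilobase of principal transcript (log axis) in each library for the genes and their close relatives, circles for libraries labelled knockout and squares for controls. Axl lies above Mertk and Dock2 above Dock1 in every library, whereas Tyro3, Edil3 and Dock5 vary most and are lowest in control 3.

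Ythdf2 binds N6-methyladenosine, which is placed on adenosine within short sequence contexts of which GGACT is a common one, often near the stop codon. The letters GGACT were therefore counted in the principal transcript of each gene. The median over 12494 transcripts of tested genes was 1.05 per kilobase, and 61.1% held them in the 3′ untranslated region. Lrp1 had 30 matches (2.02 per kilobase), all in coding sequence, and Cd93 had 10 (1.5 per kilobase), 7 of them in the 3′ untranslated region. Gas6 had 0 and Pros1 1 (0.303 per kilobase). Between these lay Gulp1 with 4, Mertk with 5, Dock1 with 7, Mfge8 with 2 and Elmo1 with 3, at 0.549 to 1.27 per kilobase. The match nearest the end of the coding sequence is shown for the 3 genes whose levels varied most between libraries (Gulp1, Mfge8 and Cd93) and for the other 2 receptors, as 21 bases with GGACT in capitals.
Mfge8, chr7:79134671-79134691, minus strand, exon 9 of 10, coding: tgtgcagtGGACTgtatatga
Cd93, chr2:148441140-148441160, minus strand, exon 2 of 2, 3′ untranslated: acttgactGGACTctcagcaa
Mertk, chr2:128794553-128794573, plus strand, exon 18 of 19, coding: cagcctgaGGACTgcttggat
Lrp1, chr10:127542279-127542299, minus strand, exon 79 of 89, coding: ctggctgtGGACTatcacaat
Gulp1, chr1:44794957-44794977, plus strand, exon 11 of 11, coding: tcaaaatgGGACTaactcttg
Their distances from the end of the coding sequence were 54 bases in Gulp1, 93 in Cd93, 167 in Mfge8, 529 in Mertk and 1477 in Lrp1. Not all of them therefore lie near the stop codon. These matches are letters in the GENCODE M21 transcripts on GRCm38, and modification was not measured in these libraries. Per kilobase Mfge8 had fewer matches than the median and Cd93 more. A link between the matches and the differences between the groups was not tested.

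The rest of the clearance pathway was followed in 8 lists, and edgeR called 0 genes in each, 0% of all genes tested as well. At an unadjusted p under 0.05 it found 4 of 24 receptors, 1 of 12 bridges, 1 of 11 exposure genes, 2 of 21 genes of the engulfment machinery and 0 in the other lists, beside 6.68% of all genes tested. Among 24 other receptors for apoptotic cells tested, 15 had a positive and 9 a negative log2 fold change, with a median of 0.049. Cd14, the lipopolysaccharide co-receptor that also tethers apoptotic cells, was at 171 and 376 CPM versus 660 to 1409 CPM (log2 fold change -2.03, SE 0.517; edgeR adjusted p = 0.442, DESeq2 adjusted p = 0.00792). Cd300lf, a receptor for phosphatidylserine, was at 17.5 and 54.0 CPM versus 2.85 to 12.04 CPM (log2 fold change 2.39; edgeR adjusted p = 0.556). The groups did not overlap in either gene, Cd14 being lower and Cd300lf higher in the knockout-labelled libraries. Of the 24 receptors 2 lay above every control and 3 below, beside 9.85% and 10.4% of all genes tested. Adgrb1 was the other above, and Havcr2 and Jmjd6 were the others below. The most abundant receptors overlapped, Stab1 at 4162 and 4384 CPM versus 3517 to 4911 CPM and Cd36 at 787 and 1181 CPM versus 1137 to 2131 CPM.

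Of 12 other bridges and opsonins tested, 5 were positive and 7 negative (median -0.042). The complement genes C1qa and C1qc, whose products coat dying cells, were low in the library labelled knockout 1 alone, at 569.6 and 633 CPM, where the other had 2509 and 2505 CPM and the controls 997 to 2403 CPM. Calr, an eat-me signal and ligand of Lrp1, was above every control at 861 and 852 CPM versus 620 to 705 CPM (log2 fold change 0.37). Ptx3 was at most 1.34 CPM in every library. Of the 12 genes 1 lay above every control and 1 below, beside 9.85% and 10.4% of all genes tested. Among 11 genes of lipid exposure and don't-eat-me signals the median was -0.0020, and Sirpa, the receptor for the don't-eat-me signal Cd47, was at 1842 and 3140 CPM versus 2310 to 3024 CPM. Atp11a, a flippase, was at 683 and 212 CPM versus 130 to 346 CPM, Plscr1 at 9.28 and 23.8 CPM versus 6.91 to 11.3 CPM, and Siglech was at most 1.2 CPM.

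In the engulfment machinery, 10 of 21 genes were positive and 11 negative (median -0.053). Trio, an exchange factor for Rac and RhoG, was above every control at 165 and 196 CPM versus 118 to 142 CPM, and Rhoa, which opposes engulfment, was below at 449 and 386 CPM versus 457 to 638 CPM. Neither passed edgeR (adjusted p = 0.745 and 0.908). Of the 21 genes 3 lay above every control and 3 below, beside 9.85% and 10.4% of all genes tested. Dock5 and Abl1 were the others above. Rac1, at 321 and 373 CPM versus 383 to 396 CPM, and Vav1, at 214 and 258 CPM versus 285 to 438 CPM, were the others below. For phagosome maturation the median over 19 genes was -0.069, with Rubcn at 183 and 110 CPM versus 95.1 to 135 CPM, Becn1 (which shares 43.9% of its exon bases with Cntd1 on the other strand) at 51.7 and 73.7 CPM versus 70.1 to 83.5 CPM, Cybb at 1444 and 2677 CPM versus 1931 to 2814 CPM and Lamp1 at 1244 and 3117 CPM versus 1519 to 2392 CPM.

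Sterol sensors, which respond to the lipid load of an engulfed cell, included 13 genes with a median of -0.11. Nr1h3, the liver X receptor alpha gene, was below every control at 8.74 and 14.7 CPM versus 17.7 to 57.7 CPM (log2 fold change -1.41; edgeR adjusted p = 0.812). Pparg was below too, at 3.81 and 9.19 CPM versus 10.3 to 38.4 CPM (edgeR adjusted p = 0.816). Ppargc1b, named after its values were seen because its p was next, lay above every control at 3.93 and 7.78 CPM versus 2.23 to 3.74 CPM (log2 fold change 1.04, edgeR adjusted p = 0.816). Of the 13 genes 1 lay above every control and 2 below, beside 9.85% and 10.4% of all genes tested. In Nr1h3 and Pparg the highest control was control 3, and without it the log2 fold changes were -0.61 and -0.75. The efflux pump Abca1 overlapped at 1265 and 1772 CPM versus 1152 to 2176 CPM, as did Scd2 at 1585 and 425 CPM versus 163 to 1093 CPM. Among 6 tested genes of receptor shedding and vitamin K dependent carboxylation, the median was 0.11. Adam17, the protease that sheds Mertk, was at 316 and 396 CPM versus 358 to 466 CPM, Adam10 at 308 and 255 CPM versus 261 to 289 CPM, and Rhbdf1 at 7.49 and 9.67 CPM versus 9.81 to 11.2 CPM. Signals downstream of the receptors (12 tested) had a median of -0.11, with Akt1 at 327 and 427 CPM versus 310 to 384 CPM, Dab2 at 742 and 743 CPM versus 654 to 1079 CPM, Ptpn6 at 208 and 368 CPM versus 345 to 468 CPM and Pik3r1 at 234 and 98.0 CPM versus 94.3 to 140 CPM.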

How the data were processed

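Read counts per gene symbol, not normalized, were deposited by the authors for 5 libraries of primary microglia. Per the submitters' processing notes FastQC, STAR and HTSeq were used with mm10; the sources used here do not give versions, annotation or strand setting. Groups and numbers came from sample titles; the title of control 3 carries a second number, and the library number was used.

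Genes were tested with edgeR 4.0.16 (R 4.3.3; quasi-likelihood F test, two-sided, filterByExpr, TMM, robust, Benjamini-Hochberg over 12543 genes, threshold 0.05, 3 residual degrees of freedom, SE as log2 fold change over the root of F). DESeq2 1.42.0 and limma-voom 3.58.1, other scalings and filters, a replicate block and leaving out each library were alternatives, and DESeq2 with libraries left out was added after seeing the data. The edgeR and DESeq2 steps were run on simulated counts that varied less between libraries than these do. That check therefore does not show how the tests behave on data this variable. Lengths and overlaps came from GENCODE M21, matched by symbol for 99.7% of genes tested.

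The 9 genes, the pathway and marker lists and the naming rule (all 9, close relatives, and per list the 2 smallest p and 2 highest means where none was called) were chosen with earlier results of these data known. Totals of 13947500 to 19577217 counts leave counting error small except for Gulp1 and for pathway and marker genes near 1 CPM or below, such as Ptx3, Siglech and Lyve1.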

Additional observations from a re-analysis of the deposited data

How the results depend on the processing

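DESeq2 called 232 genes and 1 of the 9 (Mfge8). With the library labelled knockout 1 left out it called 170 genes, without knockout 2 470, and without controls 1, 2 and 3 87, 102 and 305. Of the 9 it then called 1, 0, 1, 0 and 2 in the same order, and the median of the 9 was 0.085 without knockout 1. edgeR with other scalings, filters and variance settings, and limma-voom, called 0 genes. With a library left out edgeR called 0 genes and 0 of the 9, with a median from 0.065 to 0.40. With the replicate block, which leaves 1 residual degree of freedom, edgeR called 4 genes and 0 of the 9, for a median of 0.26. The title numbers are not said to pair samples and were not taken as pairs. Deviations from the group mean correlated at r = 0.15 for number 1 and -0.56 for number 2. Control 3, whose title carries a second number, correlated with knockout 2 at r = 0.47. The 2 knockout-labelled libraries deviate from their mean by equal and opposite amounts, so these values cannot decide whether libraries are paired. With 2 libraries against 3, 1 library can set a value: the cause of each change was not tested. Low counts limit Gulp1, Ptx3 and Siglech.

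These log2 fold changes turned direction. Elmo1 was -0.034 in limma-voom, -0.025 with the replicate block, and in DESeq2 -0.49 without knockout 1 and -0.029 without control 1. In DESeq2 Lrp1 was -0.25 without knockout 1, and Mertk -0.072 and Gas6 -0.028 without knockout 2. Dock2 was -0.0040 with no filter on low counts. With the replicate block Tyro3 was -0.24, C1qc 0.015, Edil3 -0.41, Scd2 -0.28, Akt1 -0.038 and Dab2 0.18. With each library left out in turn, edgeR's values ranged as follows: Mertk -0.092 to 0.46, Lrp1 -0.27 to 0.78, Gas6 -0.049 to 1.13, Elmo1 -0.51 to 0.40, Axl -0.21 to 0.21, Tyro3 -1.01 to 1.47, Stab1 -0.051 to 0.19, C1qa -1.61 to 0.50, C1qc -1.36 to 0.60, Edil3 -0.95 to 1.07, Lrpap1 -0.60 to 0.33, Plscr1 -0.058 to 1.27, Atp11a -0.27 to 1.45, Sirpa -0.51 to 0.23, Elmo2 -0.43 to 0.11, Dock2 -0.11 to 0.087, Rubcn -0.032 to 0.72, Cybb -0.65 to 0.22, Lamp1 -0.62 to 0.68, Abca1 -0.42 to 0.061, Scd2 -0.80 to 1.13, Adam10 -0.13 to 0.17, Pik3r1 -0.24 to 1.04, Akt1 -0.14 to 0.22 and Dab2 -0.22 to 0.18.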
